A study of Mus musculus with 96 samples.

Results

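Open facultative heterochromatin here means the GATA6 binding regions that the authors placed in the facultative heterochromatin class of undifferentiated embryonic stem (ES) cells and that nonetheless fell in the moderate or accessible class of chromatin accessibility in the same cells. The rule found 284 of 42403 GATA6 regions, 0.670% of the total, and only those class names were used to choose them. Of the 284 members, 283 were moderate and 1 was accessible. The other 9191 of the 9475 facultative heterochromatin regions, 97.0%, were closed, and they are the nearest comparison below, together with the 185 open regions without a histone mark (open naive chromatin) and the 4008 open poised enhancers. The accessibility and histone values behind the class names belong to other libraries and were not used here, so the names were not checked against the data.

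GATA6, SOX17, OCT4, SOX2 and ESRRB were profiled by chromatin immunoprecipitation and sequencing (ChIP-seq), which recovers with an antibody the DNA bound by a protein, next to input chromatin taken without an antibody. The ES cells were KH2 cells (C57BL/6 x 129/Sv) carrying a doxycycline (Dox)-inducible Gata6 cassette, grown with serum and LIF on feeder fibroblasts, and were collected without Dox (d0) and after 8 h, 16 h, 1, 2 and 4 days (d1, d2, d4) in 1 µg/ml Dox. Every ES cell group, d0 included, carried the cassette, in independent clones of the line. Extra-embryonic endoderm (XEN) cells of the X10 line (CD1 strain), which model the primitive endoderm (PrE), had no treatment and give all factors but ESRRB, and a further pair of groups had Oct4 or control siRNA with 2 days of Dox, with GATA6 and SOX17 profiled in a single clone. ES and XEN cells thus differ in strain and origin as well as in fate, and these cannot be told apart.

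Each group has 1 to 3 libraries, and GATA6 at d0 and OCT4 in XEN cells have 1. In each group of 3 (GATA6 and SOX2 at d4, SOX2 at d0 and input in XEN cells) a pair of libraries shares a replicate number and may be repeat runs, so that 3 libraries may be 2 replicates. Still, the deposited table gives a single pooled value per region and group, in RPM, the number of reads on a region scaled to a common library size. The spread between replicates is therefore unknown, no p-value could be given, and all comparisons below are counts and medians set beside the same over all 42403 regions. A change is the difference of log2(RPM + pseudocount), with a pseudocount between 0.164 and 0.195 RPM depending on the factor, and is counted when it reaches 2-fold on that scale, which understates changes at low values. With a pseudocount 10 times larger all 14 shares of members given below were more than 1.5 times smaller, such as 27.1% in place of 64.1% for GATA6 at 8 h against d0. No value in the table is 0: in GATA6 at d0 all values are whole multiples of 0.163 RPM, the value of 1 read at a depth of 6.12 M reads, and 86 of the 284 members sit at that lowest value. Whether a count was added to every region is not given in the sources used here, and a GATA6 value of 0.163 RPM at d0 means at most a single read.

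Facultative heterochromatin is chromatin that can be silenced or active depending on cell type, and in ES cells it is marked by H3K27me3, the histone modification laid down by Polycomb repressive complex 2, often around genes kept silent until differentiation. GATA6 is a zinc-finger transcription factor that specifies the PrE and can act as a pioneer factor, one able to bind DNA wrapped in nucleosomes. OCT4 (a POU-domain factor) and SOX2 (an HMG-box factor) bind together at a composite OCT:SOX motif and, with the nuclear receptor ESRRB, maintain pluripotency, and these are together called PTFs here (pluripotency transcription factors). SOX17 is an HMG-box factor of the endoderm that is switched on during PrE differentiation.

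Contrasting GATA6 courses among the members are shown by the DNA of an intronic region of Ctnna2, the gene of a neuronal catenin, and of an intronic region of Efcab2. The stretches, both chosen after their values were seen, run across the best match of each motif in the region, as scored by the authors with FIMO, and are read from the GRCm38 genome (mm10) on its plus strand. In the Ctnna2 stretch (chr6:76984358-76984601) the capitals mark the OCT:SOX match at positions 11 to 25, the GATA6 match at 59 to 71, the ESRRB match at 152 to 162 and the SOX17 match at 226 to 234, counted from 1 at its left end. The ESRRB match is on the plus strand, and the other matches are on the minus strand. In the Efcab2 stretch (chr1:178409164-178409237) they mark the SOX17 match at positions 11 to 19 and the GATA6 match at 52 to 64, both on the plus strand, and no OCT:SOX match was deposited for that region.

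Ctnna2: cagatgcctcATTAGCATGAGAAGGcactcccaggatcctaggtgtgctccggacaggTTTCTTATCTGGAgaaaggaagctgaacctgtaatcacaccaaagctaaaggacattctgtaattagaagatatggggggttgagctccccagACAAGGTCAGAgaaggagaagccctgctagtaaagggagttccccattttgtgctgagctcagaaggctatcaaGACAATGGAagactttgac
Efcab2: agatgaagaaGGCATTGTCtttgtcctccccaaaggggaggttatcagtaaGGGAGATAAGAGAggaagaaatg

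At the Ctnna2 region (chr6:76984189-76984760) the GATA6 value in RPM was 0.817 at d0, 5.14 at 8 h, 2.25 at 16 h, 1.24 at d1, 0.939 at d2, 0.238 at d4 and 0.199 in XEN cells. At the Efcab2 region (chr1:178408678-178410000) it was 0.817 at d0, 38.2 at 8 h, 37.1 at 16 h, 27.4 at d1, 29.7 at d2, 33.1 at d4 and 53.8 in XEN cells. Ctnna2 had its highest value at 8 h and was back at the level of input, 0.283 RPM, by d4, whereas Efcab2 stayed high from 8 h onward and had the highest GATA6 value of all members in XEN cells.

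The OCT:SOX matches of 5 members in which GATA6 was high at 8 h and lower at d4 are printed next, because the score of this motif goes with the GATA6 course of the members. Each line holds the match in capitals with 7 bases on either side, read on the strand of the match, and the region is named by its nearest start site.

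Scg2 chr1:79454276-79454304 (minus strand): atgttctCATTAAAATGCAAATttattcc
Anks1b chr10:90709774-90709802 (plus strand): tgaaaccTTTTATTATGCAGATtcctccc
Ctnnd2 chr15:30383259-30383287 (minus strand): actactcTTTTGTGATGTAAAGgaatgaa
Tpm3-rs7 chr14:114061537-114061565 (minus strand): ggaagtcCATTGACTTGCTAATgaagcag
Sox21 chr14:118230337-118230365 (plus strand): tagattgCATTCTAATGCTAATctagcgt

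For comparison, the best GATA6 matches are given with 8 bases on either side for regions with more GATA6 at d4 than at 8 h (Lonrf1, Kcnk13), with less (Plagl1, Cdh5, Sox21) and with GATA6 near input at 8 h (Id2, Nop58).

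Lonrf1 chr8:36252126-36252154 (minus strand): gggaatgaTGGTGATAAGCATtttccaaa
Kcnk13 chr12:99963781-99963809 (plus strand): tggcttttAGATGATAAGGGAgggaggcc
Plagl1 chr10:13102717-13102745 (minus strand): ttacctccAAGAGATAAGAGAatttagag
Cdh5 chr8:104093608-104093636 (plus strand): caataaaaGACAGATAACAGCatgcattc
Sox21 chr14:118230194-118230222 (minus strand): ttgaatggGAAAGGTAAGGATgaagctat
Id2 chr12:25216731-25216759 (plus strand): caatagatGTGTGATAAGGTAaggtgtgc
Nop58 chr1:59681270-59681298 (plus strand): aaagaaagAACAGATAAAACAcaataatc

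The Plagl1 match is in the high class of GATA6 scores, those of Lonrf1, Kcnk13, Cdh5, Id2 and Nop58 are in the middle class and that of Sox21 in the low class, so high GATA6 at 8 h was seen on matches of each class. Among all members, 21.1% had a high, 30.6% a middle and 36.3% a low GATA6 score, and 12% had no match. The shares over all regions were 26.8%, 32.9%, 30% and 10.3%, and high scores were more frequent still in closed facultative heterochromatin, at 29.9%.

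GATA6 was already high at the members after 8 h of Dox, and its level then went down slowly. The median over members was 0.327 RPM at d0, 1.34 at 8 h, 1.10 at 16 h, 1.02 at d1, 0.863 at d2, 0.827 at d4 and 0.784 in XEN cells. In closed facultative heterochromatin it was 0.327 at d0, 0.643 at 8 h, 0.822 at d2, 1.17 at d4 and 1.57 in XEN cells, so the courses cross between d2 and d4.

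Scaled by region length, since the members are shorter than GATA6 regions at large (median width 433 against 525 bp), the 8 h medians were 3.55 RPM per kb at the members, 1.42 in closed facultative heterochromatin and 3.26 over all regions. In XEN cells they were 1.58, 4.21 and 2.77 RPM per kb. Open members thus stood above the closed regions of the same histone class at 8 h and below them in XEN cells.

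Input differed less. Its median at the members lay between 0.319 and 0.457 RPM over the time course and XEN cells, and the share of members with GATA6 at least 2-fold over input went from 4.23% at d0 to 67.6% at 8 h, 47.5% at d4 and 42.6% in XEN cells. Over all regions it was 4.66%, 65.0%, 59.8% and 55.9%, so the members were near the table at d0 and 8 h and below it later. In closed facultative heterochromatin it was 44.4% at 8 h and 68.8% in XEN cells. The plot of medians by time shows these courses with the other factors.

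**Figure D1:**
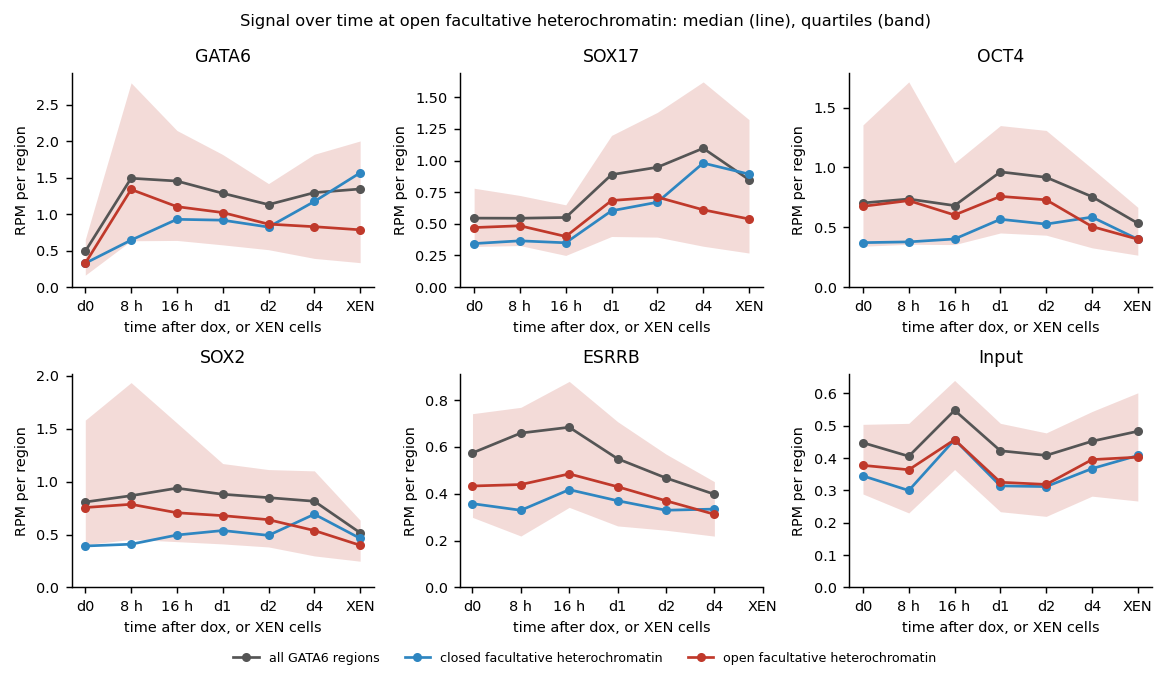
Median signal in RPM per region (y axis) before Dox, after Dox and in XEN cells (x axis) for each factor and input, with lines for the 284 members (red), closed facultative heterochromatin (blue) and all GATA6 regions (grey); the band spans the quartiles of the members, and each point is from 1 pooled value per region. GATA6 at the members is highest at 8 h, with a median of 1.34 RPM, while the closed regions are highest in XEN cells, with 1.57 RPM.

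Between d0 and 8 h, 182 of 284 members (64.1%) were at least 2-fold higher in GATA6, against 61.1% of all regions, a share near that background. Every region was called as a GATA6 peak in at least 1 condition, so a higher value after Dox is part of how regions entered the table. The shares were 40.8% in closed facultative heterochromatin, 85.4% in open naive chromatin and 74.3% at open poised enhancers.

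From 8 h to d4 the members divided. GATA6 was at least 2-fold lower at 118 members (41.5%, against 35.1% of all regions) and at least 2-fold higher at 66 (23.2%, against 31.4%). The median change was -0.59 on the log2 scale at the members, -0.02 over all regions, 0.85 in closed facultative heterochromatin, -1.73 in open naive chromatin and -0.96 at open poised enhancers. The members therefore lay between closed regions of their own histone class and open regions of other classes.

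The time of the highest GATA6 value between d0 and d4 shows the same division, with 8 h at 121 members (42.6%) and d4 at 83 (29.2%). Over all regions these shares were 32.8% and 37.2%, and in closed facultative heterochromatin 16.2% and 49.7%. In XEN cells against d4, 38 members (13.4%, against 14.8% of all regions) were at least 2-fold higher and 30 (10.6%, against 12.3%) at least 2-fold lower, both near the background.

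**Figure D2:**
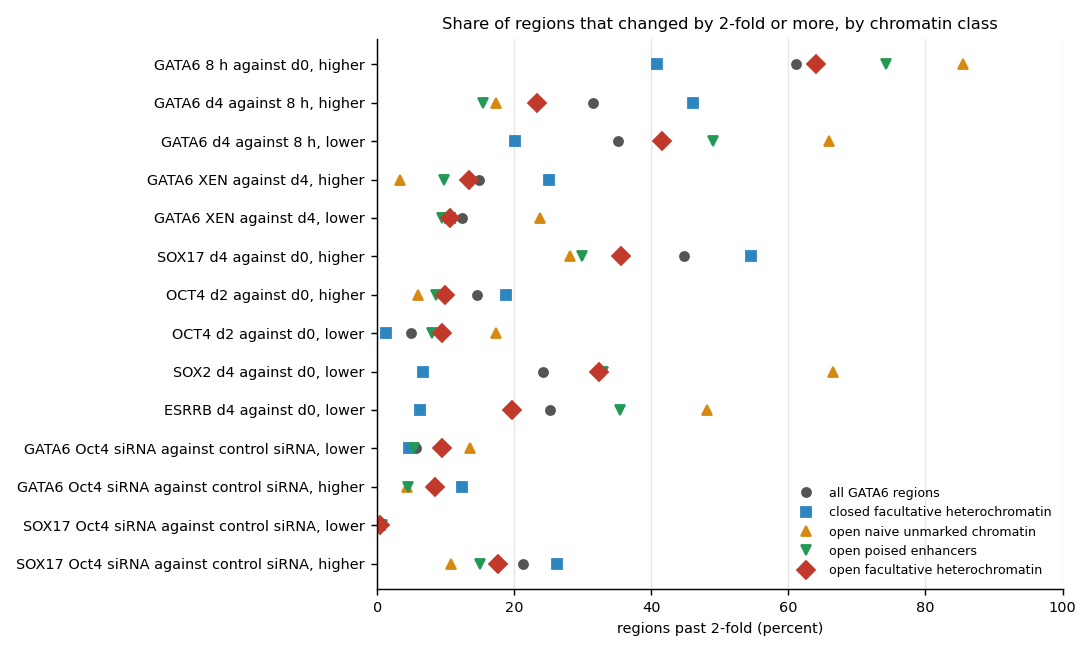
Share of regions (x axis, percent) at least 2-fold higher or lower in each of 9 comparisons (y axis), with a symbol for each chromatin class and for all GATA6 regions. For GATA6 lower from 8 h to d4 the share is 20.2% in closed regions (blue squares), 41.5% at the members (red diamonds) and 65.9% in open naive chromatin (orange triangles).

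The authors sorted regions by their GATA6 course over input into Early&Constant, Transient and Late. Of the members, 138 (48.6%) were Transient, 79 (27.8%) Late and 67 (23.6%) Early&Constant. Over all regions the shares were 38.4%, 33.6% and 28.0%, and in closed facultative heterochromatin 22.9%, 52.3% and 24.8%. The Transient share was 50.3% in open naive chromatin and 59.3% at open poised enhancers, both above that of the members. The Early&Constant, Transient and Late classes were made from the GATA6 values given above and add no separate evidence.

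By peak calls, 62 members (21.8%) were bound by a PTF before Dox, 33 (11.6%) gained a PTF peak after Dox (ectopic) and 189 (66.5%) had none. In closed facultative heterochromatin 3.72% were bound before Dox, 16.7% gained a peak and 79.6% had none. The share bound before Dox at the members was near that over all regions, 20.8%, and at open poised enhancers, 22.6%. In open naive chromatin it was 63.8%. SOX17 peaks lay on 115 members (40.5%, against 44.5% of all regions).

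GATA6 followed these classes, which were not made from it. At the 62 members bound by a PTF before Dox the GATA6 median was 3.85 RPM at 8 h and 0.645 at d4, and 51 of 62 (82.3%) were at least 2-fold lower by d4, against 71.1% of all regions of the class. At the 189 members with no PTF peak, also per region, the medians were 0.943 RPM at 8 h and 0.827 at d4, with 62 (32.8%) lower and 55 (29.1%) higher, against 28.6% and 37.0% of all regions of the class. Of the 33 with ectopic PTF peaks, 9 (27.3%) were higher and 5 (15.2%) lower, against 45.3% and 14.3%.

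SOX17 peaks went with later GATA6. Among the 115 members with a SOX17 peak, GATA6 from 8 h to d4 was at least 2-fold higher at 50 and lower at 18, whereas among the 169 without it was higher at 16 and lower at 100. The medians at d4 were 2.02 and 0.489 RPM. Over all regions the shares higher were 50.7% with and 16.0% without a SOX17 peak, and the shares lower were 15.3% and 50.9%. The division is therefore not particular to the members.

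The members differed in GATA6 course by the score of the OCT:SOX motif, which is read from DNA sequence as the best match within a region and can therefore also depend on region width. It was high at 30 members (10.6%), against 6.68% of all regions and 2.96% in closed facultative heterochromatin, and middle at 36 (12.7%, against 13.6% and 10.1%). High and middle scores were more frequent in open naive chromatin, at 13.5% and 24.9%, and less frequent at open poised enhancers, at 6.96% and 11.0%. In the 30 members of the high class the GATA6 median was 4.82 RPM at 8 h, 1.11 at d1, 0.659 at d4 and 0.429 in XEN cells. In the 83 members with no match it was 0.725 RPM at 8 h, 0.810 at d1, 0.702 at d4 and 0.934 in XEN cells. The median widths of these classes were 628 and 333 bp, and per kb the GATA6 medians were 7.04 and 2.58 RPM at 8 h and 0.984 and 1.99 at d4.

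From 8 h to d4, GATA6 was at least 2-fold lower at 27 of the 30 high-score members (90%), at 29 of 36 with a middle score (80.6%), at 40 of 135 with a low score (29.6%) and at 22 of 83 with no match (26.5%). Over all regions the shares were 72.9%, 52.5%, 32.5% and 22.6%. The order was therefore shared with the whole table, and whether the members differ from it beyond chance was not tested. Id2, whose nearest start site is 119771 bp away, was a named exception, with a high OCT:SOX score and GATA6 at 0.354 RPM at 8 h and 4.92 RPM at d4.

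SOX2 itself went the same way. Its value was at least 2-fold lower at d4 than at d0 in 26 of the 30 high-score members (86.7%), 23 of 36 with a middle score (63.9%), 34 of 135 with a low score (25.2%) and 9 of 83 with no match (10.8%). Over all regions of these classes the shares were 68.7%, 41.8%, 21.1% and 10.7%. The median SOX2 value at high-score members was 2.36 RPM at d0 and 0.431 RPM at d4. The scatter of early against day 4 signal places most high-score members below the diagonal for both factors.

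**Figure D3:**
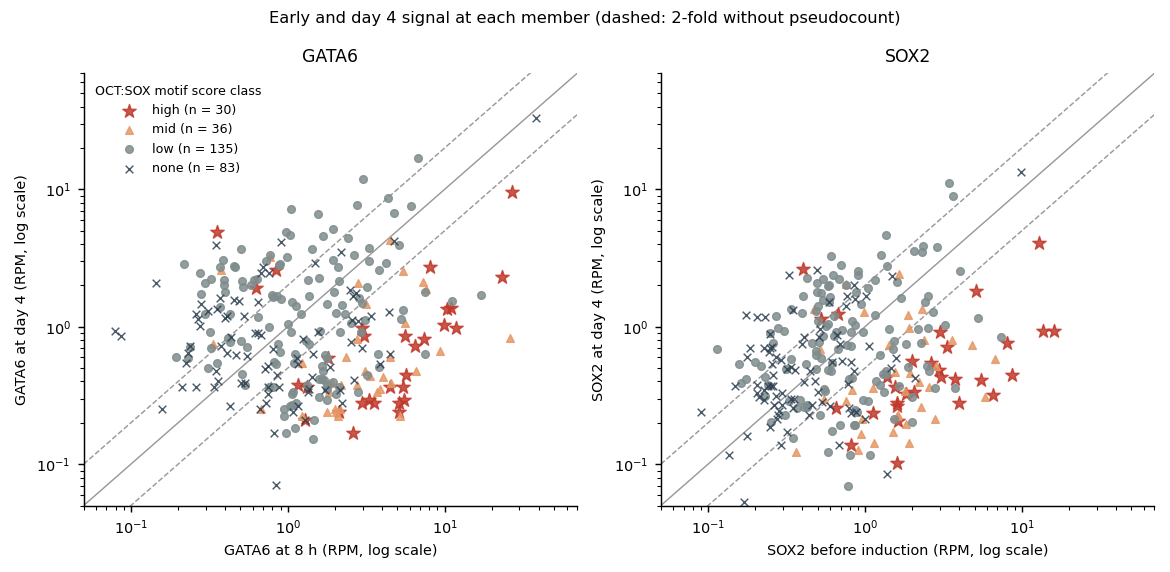
GATA6 at d4 against 8 h (left) and SOX2 at d4 against d0 (right), in RPM on log axes, with 1 symbol per member and symbols for the class of its OCT:SOX motif score; solid lines mark equal values and dashed lines 2-fold without a pseudocount. Most stars, the 30 high-score members, lie below the lower dashed line in both panels, with 27 and 26 of 30 counted as at least 2-fold lower.

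Matches to the OCT:SOX motif also sat nearer the GATA6 summit. Of the 201 members with a match, 37.3% had the best one within 50 bp of the summit, against 26.7% over all regions. The share for the SOX17 motif was 42.1% against 29.0%, and for the GATA6 motif 50.8% against 50.0%. Members are shorter than regions at large, but closed facultative heterochromatin, of nearly the same median width (435 bp), had 26.1% of OCT:SOX and 34.0% of SOX17 matches within 50 bp, and 56.6% of GATA6 matches. The OCT:SOX share was 33.3% in open naive chromatin, with a median width of 593 bp, and 30.7% at open poised enhancers. It was thus above that of the table in these open classes too. Their SOX17 shares were 27.2% and 29.8%.

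Among the named members, chosen by highest values and largest changes, a set had high GATA6 at 8 h with OCT4 and SOX2 already present. Most of them are wider than the median of 433 bp, which raises a value per region. Scg2 encodes secretogranin II, a protein of neuroendocrine secretory granules, and the region, 1791 bp wide and 14384 bp from its start site, had GATA6 values in RPM of 0.980 at d0, 27.1 at 8 h, 22.6 at 16 h, 18 at d1, 15.6 at d2, 9.57 at d4 and 8.57 in XEN cells. OCT4 there was 9.74 at d0, 13.4 at 8 h, 8.92 at 16 h, 13.9 at d1, 13.3 at d2, 4.42 at d4 and 1.07 in XEN cells. GATA6 at Scg2 was highest at 8 h yet stayed well over input, and OCT4 held up to d2 and was low in XEN cells.

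The region in an intron of Plagl1, which encodes a zinc-finger factor and is imprinted, had GATA6 values of 1.47 at d0, 26.1 at 8 h, 8.50 at 16 h, 3.39 at d1, 1.87 at d2, 0.827 at d4 and 0.501 in XEN cells. Its OCT4 values were 5.53 at d0, 10.3 at 8 h, 3.73 at 16 h, 3.01 at d1, 1.56 at d2, 0.527 at d4 and 0.933 in XEN cells. SOX2 there was 6.70 at d0, 11.7 at 8 h, 6.15 at 16 h, 2.37 at d1, 1.62 at d2, 0.585 at d4 and 0.452 in XEN cells. All of these factors were highest at 8 h and at or near input, 0.848 RPM, by d4.

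In an intron of Ctnnd2, the gene of delta-catenin, GATA6 was 0.980 at d0, 23.1 at 8 h, 13.1 at 16 h, 4.99 at d1, 4.69 at d2, 2.32 at d4 and 0.802 in XEN cells. OCT4 there had the highest d0 value among the members and was 14.7 at d0, 20.1 at 8 h, 12.5 at 16 h, 10.1 at d1, 9.39 at d2, 2.14 at d4 and 0.400 in XEN cells. SOX2 was 16.0 at d0, 17.2 at 8 h, 18.8 at 16 h, 8.78 at d1, 8.29 at d2, 0.927 at d4 and 0.643 in XEN cells. Unlike Plagl1, this region kept OCT4 and SOX2 above 8 RPM until d2.

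The region in an intron of Anks1b, which encodes a scaffold protein of synapses, kept OCT4 to d2. GATA6 there was 0.980 at d0, 10.3 at 8 h, 6.74 at 16 h, 6.62 at d1, 6.10 at d2, 1.35 at d4 and 0.538 in XEN cells. OCT4 was 13.1 at d0, 17.6 at 8 h, 9.75 at 16 h, 15.7 at d1, 16.8 at d2, 1.24 at d4 and 1.33 in XEN cells, and SOX2 was 13.6 RPM at d0, 14.4 at d2 and 0.927 at d4. Both PTFs were as high at d2 as at d0 and low at d4.

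Sox21 encodes an HMG-box repressor of the SOX family, and the region 6696 bp from its start site had GATA6 values of 0.490 at d0, 9.94 at 8 h, 2.14 at 16 h, 1.14 at d1, 0.794 at d2, 1.02 at d4 and 0.768 in XEN cells. OCT4 was 8.14 at d0, 12.7 at 8 h, 3.01 at 16 h, 2.09 at d1, 1.55 at d2, 0.927 at d4 and 0.400 in XEN cells, and SOX2 was 8.72 RPM at d0, 10.0 at 8 h, 4.55 at 16 h and 2.05 at d2. The region 8080 bp from the start site of Cdh5, the gene of the endothelial cadherin, had GATA6 at 0.490 RPM at d0, 6.62 at 8 h and 1.74 at 16 h, and OCT4 at 7.35, 11.0 and 2.91 RPM at the same times. At both regions OCT4 and SOX2 went down between 8 h and 16 h together with GATA6. Over all regions OCT4 was also lower at 16 h. It was at least 2-fold over input in 38.0% of them at 8 h, 23.4% at 16 h and 45.5% at d1.

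Robo3 encodes an axon guidance receptor, and its region had the highest ESRRB value of all members at d0, with ESRRB at 7.76 RPM at d0, 10.2 at 8 h, 3.16 at d2 and 1.25 at d4. GATA6 there was 17.1 RPM at 8 h, 7.77 at 16 h, 6.58 at d2 and 1.72 at d4. In the region nearest to Tpm3-rs7, 746949 bp from its start site, GATA6 went from 7.35 RPM at 8 h to 0.816 at d4 and OCT4 from 5.40 RPM at d0 to 5.28 at d2 and 0.492 at d4. Ctnna2 and the region nearest to 1700015G11Rik were of the same kind at lower level, with 8 h values of 5.14 and 5.19 RPM.

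In the other direction, the Efcab2 region had SOX17 values in RPM of 4.02 at d0, 3.34 at 8 h, 4.45 at 16 h, 18.4 at d1, 23.6 at d2, 30 at d4 and 31.5 in XEN cells. OCT4 there was 5.76 at d0, 7.36 at 8 h, 6.19 at 16 h, 11.8 at d1, 11.9 at d2, 8.20 at d4 and 3.47 in XEN cells, and ESRRB was 7.44 RPM at d0, 12.6 at 8 h and 1.36 at d4. SOX17 came up from d1, when GATA6 had been in place since 8 h, and ESRRB was low by d4.

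The region 2701 bp from the start site of Lonrf1, a gene of a RING-finger protein, had GATA6 values of 0.653 at d0, 3.0 at 8 h, 2.73 at 16 h, 3.79 at d1, 3.74 at d2, 11.9 at d4 and 26.7 in XEN cells. SOX17 there was 1.64 at d0, 1.52 at 8 h, 1.5 at 16 h, 3.56 at d1, 4.69 at d2, 12.8 at d4 and 18.6 in XEN cells. SOX2 was 2.61 RPM at d2, 8.98 at d4 and 3.71 in XEN cells. GATA6 and SOX17 were both highest in XEN cells.

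Kcnk13 encodes a potassium channel, and the region 658 bp from its start site had GATA6 at 6.77 RPM at 8 h, 12.8 at d2, 16.9 at d4 and 9.85 in XEN cells. OCT4 was 2.98 at d0, 3.40 at 8 h, 2.94 at 16 h, 10.3 at d1, 13.8 at d2, 18.8 at d4 and 1.73 in XEN cells. SOX2 was 3.42 RPM at d0 and 11.2 at d4, and SOX17 was 2.13 RPM at d0 and 22.5 at d4. Kcnk13 thus had more OCT4 and SOX2 at d4 than at d0, unlike Scg2, Anks1b, Ctnnd2, Tpm3-rs7 and Sox21.

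Values highest at d2 and lower at d4 were seen at Fam19a3, Tjp1 and C130074G19Rik. In an intron of Fam19a3, which encodes a small secreted protein, OCT4 was 1.01 RPM at d0, 9.33 at d2, 5.89 at d4 and 0.800 in XEN cells, and GATA6 was 1.43 RPM at 8 h, 8.00 at d2 and 3.68 at d4. At C130074G19Rik OCT4 was 0.453 RPM at d0, 5.94 at d2 and 2.72 at d4. At the region near Tjp1, the gene of the tight junction protein ZO1, GATA6 was 0.868 RPM at 8 h, 3.85 at d2 and 0.746 at d4.

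Late gains at Fam20a, Id2 and Nop58 reached lower GATA6 values in RPM at d4 than those at Lonrf1 and Kcnk13. On the log2 scale, however, they were the largest increases from 8 h to d4 among members of at least 2 RPM. In an intron of Fam20a, a gene of the secretory pathway, GATA6 was 0.653 at d0, 0.217 at 8 h, 0.583 at 16 h, 0.589 at d1, 1.37 at d2, 2.88 at d4 and 6.01 in XEN cells. Id2 encodes an inhibitor of helix-loop-helix factors, and its region had GATA6 values of 0.653 at d0, 0.354 at 8 h, 1.45 at 16 h, 2.30 at d1, 2.16 at d2, 4.92 at d4 and 5.90 in XEN cells. Near Nop58, the gene of a core protein of small nucleolar ribonucleoproteins, GATA6 was 0.327 at d0, 0.348 at 8 h, 0.232 at 16 h, 0.810 at d1, 1.09 at d2, 3.95 at d4 and 1.87 in XEN cells. At Fam20a, Id2 and Nop58 the 8 h value was at or near input, and a change from there rests on few reads. Fam20a and Nop58 are in the authors' Late class, but Id2 is Early&Constant, with GATA6 over input, 0.368 RPM, already at 16 h. In Klrg2 and Kcnh6 introns GATA6 was 4.37 and 6.07 RPM at 8 h, 8.63 and 7.60 at d4, and 9.14 and 15.2 in XEN cells. From 8 h to d4 the changes were 0.96 and 0.32 on the log2 scale, and from d4 to XEN cells 0.08 and 0.98, all short of 2-fold. The Kcnh6 intron region has Dcaf7 as its nearest start site and is shown under that name.

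**Figure D4:**
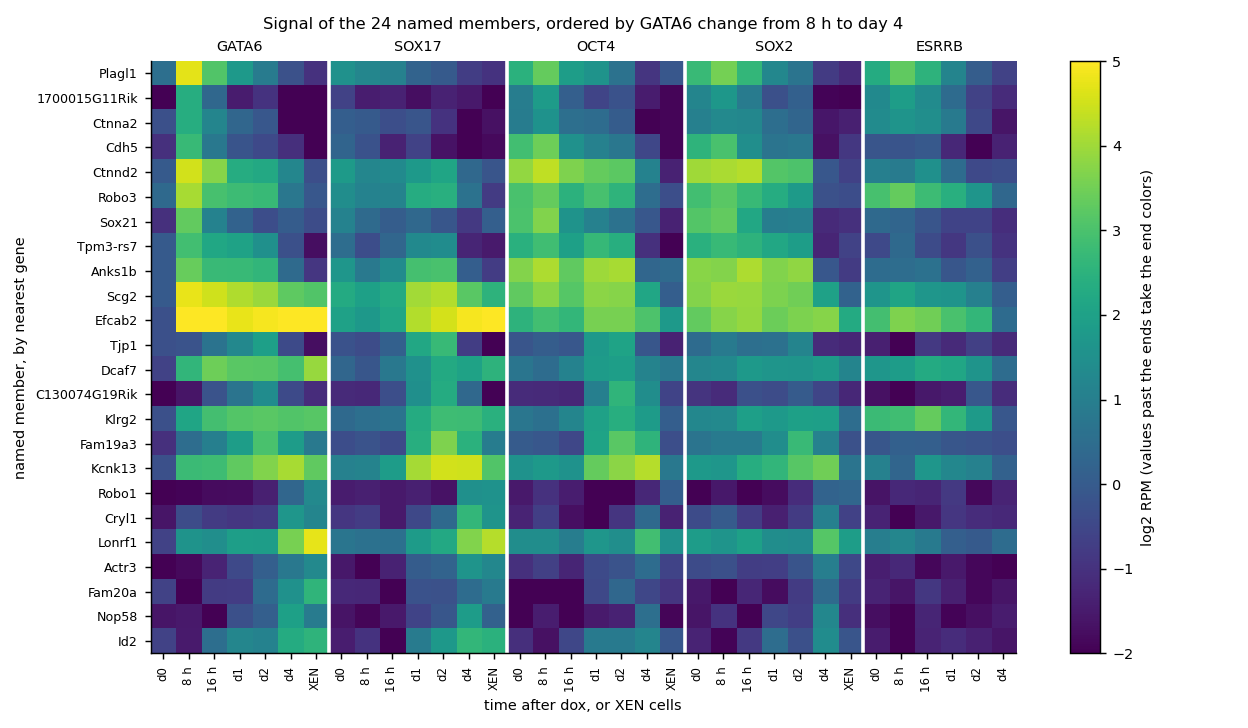
Signal of the 24 named members (rows, by nearest gene) in each group of each factor (columns), with color giving log2 RPM from -2 to 5 and rows ordered by the change of GATA6 from 8 h to d4. Regions in the upper rows, such as Plagl1 with 26.1 RPM of GATA6 at 8 h and 0.827 at d4, also have OCT4 and SOX2 at d0. At the bottom, Nop58 has little of any factor before d1, and Id2 little before 16 h, when its GATA6 is 1.45 RPM.

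SOX17 came up later than GATA6, and at a smaller share of members than of all regions. The median was 0.470 RPM at d0, 0.485 at 8 h, 0.400 at 16 h, 0.684 at d1, 0.711 at d2, 0.611 at d4 and 0.538 in XEN cells. From d0 to d4, 101 members (35.6%) were at least 2-fold higher, against 44.8% of all regions, 54.5% in closed facultative heterochromatin and 28.1% in open naive chromatin. The d0 level differed between these classes. At d0, SOX17 was at least 2-fold over input in 12.3% of members and 11.2% of all regions. In closed facultative heterochromatin this share was 1.36%, and in open naive chromatin 42.2%. At d4 the shares over input were 41.5%, 51.4%, 55.2% and 44.9% in the same order. The median change was 0.43 at the members and 0.80 over all regions, on the log2 scale.

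Before Dox, SOX17 values at the members ran with those of SOX2, with a Spearman's rho of 0.76 over the 284 members and 0.86 over all regions, both per kb. At d4 SOX17 ran with GATA6, with a rho of 0.89 at the members and 0.90 over all regions, and GATA6 with input had a rho of 0.57 at the members. These are correlations across regions, which are not replicates and share libraries, depth and base composition, and they are given as descriptions.

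OCT4 moved in both directions. Its median at the members was 0.675 RPM at d0, 0.723 at 8 h, 0.602 at 16 h, 0.758 at d1, 0.729 at d2, 0.506 at d4 and 0.400 in XEN cells. By d2, 28 members (9.86%, against 14.6% of all regions) were at least 2-fold higher and 27 (9.51%, against 4.86%) at least 2-fold lower. In closed facultative heterochromatin 18.8% were higher and 1.25% lower, and in open naive chromatin 5.95% and 17.3%.

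By OCT:SOX score, OCT4 at d2 was at least 2-fold lower at 10 of the 30 high-score members, 13 of the 36 with a middle score, 4 of the 135 with a low score and 0 of the 83 with no match. The member shares were 33.3%, 36.1%, 2.96% and 0.00%, against 19.3%, 11.5%, 3.41% and 0.926% of all regions of these classes, and those of the low and no-match classes were near that background. The largest decreases among members of at least 2 RPM were at Sox21, Plagl1 and Cdh5, and the largest increases at C130074G19Rik, Fam19a3 and Kcnk13.

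SOX2 at the members had medians of 0.755 RPM at d0, 0.786 at 8 h, 0.706 at 16 h, 0.679 at d1, 0.640 at d2, 0.538 at d4 and 0.399 in XEN cells. It was at least 2-fold lower at d4 than at d0 in 92 members (32.4%), against 24.1% of all regions. The share lower was 6.64% in closed facultative heterochromatin and 66.5% in open naive chromatin. SOX2 was at least 2-fold higher at d4 than at d0 in 50 members (17.6%), against 24.0% of all regions. The share higher was 36.2% in closed facultative heterochromatin and 10.8% in open naive chromatin. SOX2 increases were not among the shares recounted with other pseudocounts. The median change was -0.16 at the members and 0.10 over all regions, so the middle of the members was lower while that of the table was higher.

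ESRRB was low at most members. Its median was 0.433 RPM at d0, 0.439 at 8 h, 0.485 at 16 h, 0.430 at d1, 0.370 at d2 and 0.312 at d4, against 0.574 RPM at d0 over all regions, and per kb the d0 medians were 1.03 and 1.08. At d4, 56 members (19.7%) were at least 2-fold lower than at d0, against 25.2% of all regions. The share was 6.17% in closed facultative heterochromatin and 35.5% at open poised enhancers, and ESRRB at least 2-fold over input at d0 was seen in 13.0% of members, 18.7% of all regions and 4.35% of closed facultative heterochromatin.

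Early GATA6 ran with the PTF signal present before Dox. Over the 284 members, per kb, the Spearman's rho of GATA6 at 8 h was 0.73 with OCT4 at d0, 0.70 with SOX2 at d0 and 0.39 with ESRRB at d0. Over all regions the values were 0.79, 0.78 and 0.60. GATA6 at 8 h and GATA6 in XEN cells had a rho of -0.51 at the members and -0.42 over all regions. For GATA6 at d4 and in XEN cells the values were 0.80 and 0.73. Regions high at 8 h thus tended to be low in XEN cells, at the members as over the whole table.

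The siRNA groups ask whether GATA6 and SOX17 binding depends on OCT4. OCT4 signal in those cells was not analysed here, so the knockdown itself was not checked. At d2 the median GATA6 value at the members was 1.16 RPM with control and 1.22 with Oct4 siRNA. GATA6 was at least 2-fold lower with Oct4 siRNA at 27 members (9.51%, against 5.65% of all regions) and at least 2-fold higher at 24 (8.45%, against 8.19%). The share lower was 4.60% in closed facultative heterochromatin and 13.5% in open naive chromatin.

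Most decreases lay at members with a PTF peak. Of the 62 bound by a PTF before Dox, 15 were lower and 1 was higher. Of the 33 with ectopic PTF peaks, 7 were lower and 2 higher, and of the 189 with none, 5 were lower and 21 higher. The shares lower were 24.2%, 21.2% and 2.65% at the members, against 11.5%, 6.89% and 3.36% over all regions of these classes. The shares higher were 1.61%, 6.06% and 11.1%, against 1.31%, 2.24% and 12.1%, so increases at members with no PTF peak were near the background. Among the high-score OCT:SOX members 9 of 30 were lower and 0 were higher, against 13.0% and 2.40% of all high-score regions.

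SOX17 shifted as a whole with Oct4 siRNA, by a median of 0.53 on the log2 scale over all regions and 0.41 at the members, so counts of increases include that shift. SOX17 was at least 2-fold higher at 50 members (17.6%, against 21.2% of all regions) and at least 2-fold lower at 1 (0.352%, against 0.465%). Relative to the median change of all regions, 6.34% of members were higher and 6.34% lower. Of the 79 Late members, 29 (36.7%) were higher in SOX17 and 20 (25.3%) in GATA6, near the shares of all Late regions, 39.9% and 21.8%.

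Single members show these directions. At Anks1b GATA6 was 7.85 RPM with control and 2.60 with Oct4 siRNA. At Tpm3-rs7 it was 3.05 and 0.611 RPM, and at Tjp1 7.0 and 2.25 RPM. At these regions, with the largest decreases among members of at least 2 RPM, SOX17 went from 5.57 to 3.99 RPM at Anks1b, from 0.783 to 0.926 at Tpm3-rs7 and from 6.19 to 3.09 at Tjp1. SOX17 was thus lower at Anks1b and Tjp1, and slightly higher at Tpm3-rs7.

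The largest increases were in introns of Robo1, an axon guidance receptor gene, Cryl1, which encodes a crystallin-like dehydrogenase, and Actr3, a subunit of the actin-nucleating complex. GATA6 with control and Oct4 siRNA was 0.334 and 2.24 RPM at Robo1, and 0.811 and 3.37 RPM at Cryl1. At Actr3 it was 0.866 and 3.15 RPM. All of these are Late members with no PTF peak, and SOX17 was higher with Oct4 siRNA at each, for example 0.612 and 3.87 RPM at Robo1. At Efcab2, by contrast, GATA6 was 43.8 and 47.1 RPM.

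**Figure D5:**
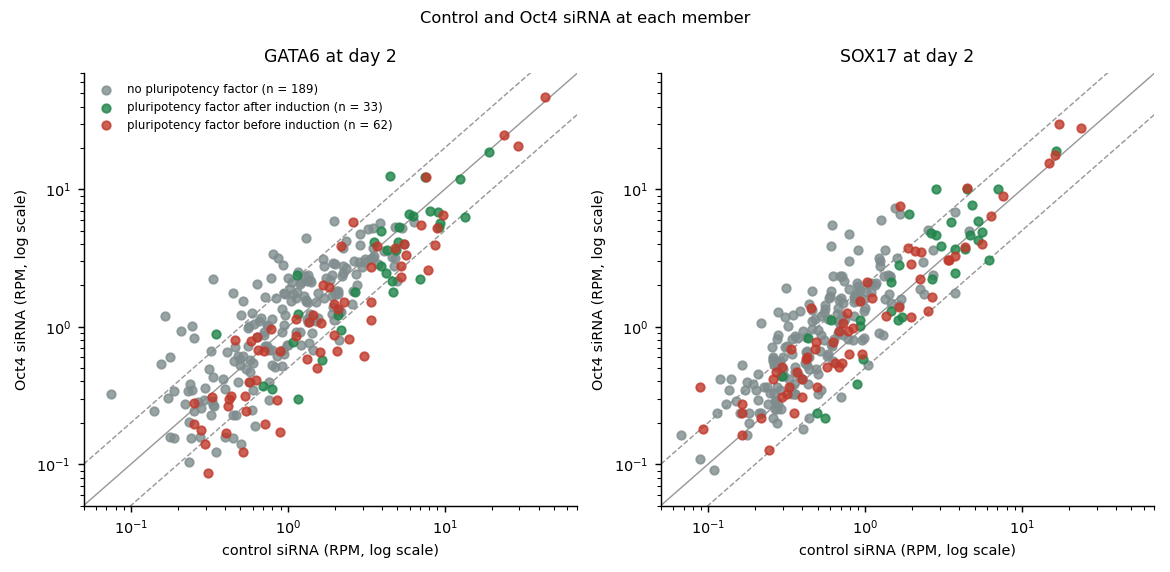
GATA6 (left) and SOX17 (right) at d2 with Oct4 siRNA (y axis) against control siRNA (x axis), in RPM on log axes, with 1 point per member, colored by PTF class; solid lines mark equal values and dashed lines 2-fold without a pseudocount. In the left panel 15 of the 62 members bound by a PTF before Dox were counted as at least 2-fold lower, and in the right panel the median change of all members was 0.41 on the log2 scale.

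Members near listed genes were about as frequent as in the table at 50 kb. Of 396 genes in lists of Hox clusters, developmental transcription factors, signaling ligands and receptors, PrE and endoderm genes, pluripotency genes and Polycomb and chromatin factors, none had a start site within 5 kb of the GATA6 summit of a member, whereas 329 regions of the table did (0.776%, and 2.22% of open poised enhancers). Within 50 kb there were 7 members (2.46%, against 3.20% of all regions), near Lama1, Fzd2, Meis1, Wnt7b, Sox21, Lhx3 and Pitx3. Developmental transcription factors accounted for 4 of them (1.41%, against 0.910% of all regions), signaling genes for 2 (0.704%, against 0.729%) and PrE and endoderm genes for 1 (0.352%, against 0.769%).

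Lama1 encodes a laminin chain of the basement membrane that PrE cells deposit, and GATA6 in its intron was 0.327 RPM at d0, 0.608 at 8 h, 1.23 at d2, 2.18 at d4 and 2.47 in XEN cells. Near Fzd2, a Wnt receptor gene, it was 1.5 RPM at 8 h, 2.93 at d4 and 4.31 in XEN cells. In an intron of Meis1, a homeobox gene, it was 1.84 RPM at 8 h, 0.520 at 16 h and 0.392 at d4. The PrE gene and the Wnt receptor gene thus had more GATA6 late, and Meis1 had its highest value at 8 h.

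Near Wnt7b, a Wnt ligand gene, GATA6 was 1.34 RPM at 8 h and 0.336 at d4. The regions within 50 kb of Lhx3 and Pitx3, both homeobox genes, had 0.0796 and 0.427 RPM at 8 h, 0.927 and 0.266 at d4, and 1.06 and 1.5 in XEN cells, so over the time course and XEN cells both were highest in XEN cells. Expression was not measured in the table used here, and no gene was linked to a region other than by distance.

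In position the members were like the rest of the table except close to start sites. Within 1 kb of a start site lay 5.99% of members and 9.45% of all regions. Within 5 kb the shares were 26.4% and 26.0%. By the GENCODE M21 annotation, 49.6% of summits lay in introns, 47.5% between genes and 2.82% in exons, against 46.6%, 49.0% and 4.38% over all regions. The median distance to a start site was 14251 bp, against 16334 bp over all regions and 22775 bp in closed facultative heterochromatin. GC content was 45.4% against 45.2%, and the ratio of observed to expected CpG was 0.172 against 0.195, far from the CpG islands at which Polycomb is often found.

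They differed in repeats and in motif number. Repeats covered 50% or more of 42 members (14.8%), against 8.68% of all regions, 4.85% in closed facultative heterochromatin and 44.9% in open naive chromatin. At least 3 GATA6 matches were present in 29.6% of members and 41.7% of all regions, with 42.9% in closed facultative heterochromatin, which has nearly the same median width, and 28.0% at open poised enhancers. Reads in repeats can map to several places, and reads of low mapping quality had been removed.

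Another GATA6 region lay within 10 kb of 46.5% of members, against 53.6% of all regions. The neighbor was an active enhancer for 10.6% of members, 4.22% of closed facultative heterochromatin regions and 11.6% of all regions. It was another facultative heterochromatin region for 9.86%, 22.1% and 15.4%. Chromosomes 10 and 6 held the most members, 27 each. The 1 accessible member (chr10:123061445-123061903), in an intron of Mon2, a gene of endosomal trafficking, had GATA6 at 0.163 RPM at d0, 3.12 at 8 h, 1.13 at d4 and 0.264 in XEN cells, with SOX2 at 2.81 RPM at d0 and 0.357 at d4.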

How the data were processed

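The authors sequenced ChIP and input libraries of the groups named above, ran bcl2fastq and cutadapt, aligned reads with Bowtie2 to mm10, filtered them on mapping quality and for duplicates (SAMtools, molecular identifiers), and called peaks with MACS2 on merged libraries. Tool versions are not given in the sources used here. They counted reads on each of 42403 regions and deposited RPM, scaled to library size and pooled over the libraries of a group, and the motif score of the best FIMO match, with classes made from peaks, scores and k-means. Depth per library is unknown except where values are whole multiples of a step, as for GATA6 at d0 and OCT4 in XEN cells. Values of ESRRB at 8 h and SOX17 at 16 h are also whole multiples of a step. By their labels these groups have 2 libraries each, and whether both libraries entered the value is unknown.

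Of 96 labelled libraries in 47 groups, 45 columns of RPM were used. In all 27 of the 105 columns were not used, among them 14 with per-sample accessibility and histone values of other libraries and the outcome of the authors' own test of GATA6 between Oct4 and control siRNA. Members and gene lists were chosen with earlier results of these data known.

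Changes were log2(RPM + pseudocount), with the pseudocount at percentile 5 of each factor's non-zero values, and counted from 2-fold, over 9 comparisons and 14 shares. Counting was tested on simulated data, only for regions with GATA6 of at least 2 RPM. That check does not cover lower values, where most members lie. No test between groups was possible with 1 value per group. Widths, distances to start sites and sequences came from the GRCm38 genome and GENCODE annotation of the mm10 build, with Python 3.11.15, pandas 2.3.3, numpy 2.4.6, pysam 0.24.0 and matplotlib 3.10.9. Named members are the 3 highest for 8 factor and time choices, the 3 highest and 3 lowest changes of 3 comparisons among members of at least 2 RPM, and up to 6 members per gene list within 5 kb, of which there were none. Alternatives were other pseudocounts, input or the table's median as reference, a filter on low values, single accessibility classes and subtraction of each column's lowest value.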

Additional observations from a re-analysis of the deposited data

How the results depend on the processing

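None of the 14 shares moved by over 1.5 times in the moderate class alone, and none of those run relative to input did. Input was not used for the siRNA groups, so their shares were not run relative to it. Relative to input, GATA6 in XEN cells against d4 was higher at 9.86% of members and lower at 14.4%, against 13.4% and 10.6% without it. OCT4 at d2 was higher at 13.7% and lower at 6.34%, against 9.86% and 9.51%. The balance of these comparisons thus depends on the reference. With a pseudocount 10 times larger, the shares of members were 27.1% for GATA6 higher at 8 h, 7.04% higher and 17.3% lower at d4, 2.46% higher and 0% lower in XEN cells, 13.0% for SOX17 higher at d4, 2.46% higher and 1.76% lower for OCT4 at d2, 7.04% for SOX2 lower and 2.46% for ESRRB lower at d4, and, with Oct4 siRNA, 1.06% lower and 1.41% higher for GATA6 and 0% lower and 3.52% higher for SOX17. SOX2 lower at d4 among the members with a high OCT:SOX score was then 36.7%, and GATA6 lower from 8 h to d4 in the same members 66.7%. With one 10 times smaller, GATA6 lower in XEN cells was 19.4%, ESRRB lower 30.6% and SOX17 lower with Oct4 siRNA 2.11%. Relative to the median of all regions, GATA6 higher at 8 h was 20.8%, SOX17 higher at d4 20.4%, OCT4 lower 14.4%, ESRRB lower 9.51%, and SOX17 with Oct4 siRNA 6.34% lower and 6.34% higher. Members pass a filter on the mean of both conditions also through the condition where they are high, so the larger shares under it follow in part from its construction: at or above the table's median signal, GATA6 higher in XEN cells was 25.3%, SOX17 higher at d4 73.2%, OCT4 18.2% higher and 17.4% lower, ESRRB lower 45.1%, and SOX17 with Oct4 siRNA 0.885% lower and 27.4% higher. The accessible class alone is 1 region, so its shares are 100% or 0%: 100% for GATA6 higher at 8 h, lower at d4, in XEN cells and with Oct4 siRNA and for SOX2 lower, and 0% for the other 9. With each column's lowest value subtracted, an alternative added after seeing the data, SOX17 lower with Oct4 siRNA was 1.06%. The alternatives for members with a high OCT:SOX score were also added then.

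No paired analysis was possible because each group has a single pooled value, and leaving out a replicate was not possible for the same reason. Low values rest on few reads, which limits every share counted near the pseudocount.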
